A study of Mus musculus with 32 samples.

Results

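Creatine stores high-energy phosphate, and 7 genes that make, import and charge it were followed across 4 mouse tissues and 2 genotypes. They were taken as a fixed list of 7 of the 51510 genes with a summed transcript abundance: Gatm, Gamt, Slc6a8, Ckb, Ckm, Ckmt1 and Ckmt2. Male C57BL/6J mice gave 32 libraries, from heart, liver, muscle and brown fat (BAT), with 8 groups of 4 individual mice: wild-type (WT) or SMIM30 knockout (labelled Mut) in each tissue. SMIM30 is a small membrane protein. All animals shared strain and sex and no treatment was named. Ages and the way the knockout allele was made were not given in the sources used here.

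Creatine is built in 2 steps. Gatm joins glycine to a group taken from arginine, which gives guanidinoacetate, and Gamt methylates this with S-adenosylmethionine. In mammals kidney and pancreas are known for the first step and liver for the second, and creatine then travels in blood to muscle, heart and brain, which import it through the transporter Slc6a8. Creatine kinases move phosphate between ATP and creatine: Ckb (brain type) and Ckm (muscle type) act in the cytosol, while Ckmt1 (ubiquitous) and Ckmt2 (sarcomeric) sit between the mitochondrial membranes. In brown fat, creatine kinases and phosphocreatine phosphatases have been studied as part of a heat-producing cycle.

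The genes lie apart in the genome, on GRCm38 with GENCODE M21. Gatm spans chr2:122594467-122611303 (minus strand) and Ckmt1 chr2:121357714-121363737 (plus strand) on the same chromosome. Gamt is at chr10:80258151-80261012 (minus), Slc6a8 at chrX:73673150-73682502 (plus), Ckb at chr12:111669361-111672338 (minus), Ckm at chr7:19404776-19422841 (plus) and Ckmt2 at chr13:91853387-91876885 (minus).

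The bases upstream of 4 of them are printed because these genes peaked in different tissues: Ckm was highest in muscle, Ckmt2 in heart and muscle together, Ckb in BAT and Gamt in liver. The sequences are RefSeq's for GRCm38.p6, each read 5′ to 3′ on the gene's strand and ending just before an annotated start, at chr7:19410844-19411024 for Ckm, chr13:91876886-91877135 for Ckmt2, chr12:111672339-111672588 for Ckb and chr10:80261013-80261262 for Gamt. The Ckm sequence is the first 181 bases of its window, up to the first annotated protein-coding start in GENCODE M21, which lies before the RefSeq start. Capitals mark the matches to the motifs searched.
Ckm: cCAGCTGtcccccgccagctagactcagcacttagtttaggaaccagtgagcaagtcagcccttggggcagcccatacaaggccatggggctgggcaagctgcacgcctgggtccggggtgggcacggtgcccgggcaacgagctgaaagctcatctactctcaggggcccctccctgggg
Ckmt2: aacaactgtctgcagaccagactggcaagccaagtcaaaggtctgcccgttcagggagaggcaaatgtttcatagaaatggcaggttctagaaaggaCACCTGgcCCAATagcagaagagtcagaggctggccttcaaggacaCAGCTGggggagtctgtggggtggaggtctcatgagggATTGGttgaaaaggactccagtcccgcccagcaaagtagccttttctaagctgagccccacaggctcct
Ckb: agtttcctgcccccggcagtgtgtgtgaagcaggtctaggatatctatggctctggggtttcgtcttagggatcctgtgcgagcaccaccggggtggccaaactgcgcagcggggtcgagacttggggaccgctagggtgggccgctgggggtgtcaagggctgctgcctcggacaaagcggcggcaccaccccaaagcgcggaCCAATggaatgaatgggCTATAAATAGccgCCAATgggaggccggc
Gamt: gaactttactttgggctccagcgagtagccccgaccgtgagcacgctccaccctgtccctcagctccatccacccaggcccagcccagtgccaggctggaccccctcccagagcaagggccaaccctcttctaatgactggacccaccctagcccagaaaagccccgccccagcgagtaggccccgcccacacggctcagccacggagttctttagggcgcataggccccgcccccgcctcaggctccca
The motifs were searched on both strands in the 250 bases before each RefSeq start: the E-box CAGCTG (in 13% of 32851 promoters of that length), its variant CACCTG (17.2%), the MEF2 box, CTA and TAG with 4 bases between (3.2%), the ERR element TNAAGGTCA (1.14%), the TATA box TATAAA (12.4%) and the CCAAT box (33.8%). E-boxes are read by muscle regulatory factors such as MyoD, and MEF2 boxes by the MEF2 family. In Ckm, CAGCTG starts 249 bases before the RefSeq start. The Ckmt2 window holds CAGCTG at 107, CACCTG at 153 and CCAAT on either strand at 69 and 145 bases. In Ckb, CCAAT lies at 16 and 46 bases, and TATAAA at 28 bases lies inside the MEF2-type match CTATAAATAG at 29 bases, so these letters are counted under both motifs. None of the 6 motifs was found in the Gamt window. A match describes the letters only, and no binding was measured.

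All values are TPM, a transcript abundance corrected for transcript length and scaled to the same total in every library, so levels may be set side by side between genes. TPM keeps no read totals: sequencing depth is unknown, and precision was read from the spread between mice. The number of genes at 1 TPM or more ran from 11480 to 12431 per library. Summed marker genes followed the labelled tissues: the sum of 8 hepatocyte genes, led by Alb, was 107680 ± 7112 TPM in WT liver (SD, n = 4) and at most 1508 TPM in any library of another tissue. The sum of 13 skeletal fibre genes, led by Tnnt3, was 107386 ± 11836 TPM in WT muscle, and that of 7 cardiomyocyte genes, led by Tnnt2, was 24907 ± 1261 TPM in WT heart. The sum of 10 brown adipocyte genes, led by Fabp4, was 23369 ± 1349 TPM in WT BAT and at most 4102 TPM in any library of another tissue. Not all of these 10 were highest in BAT. Among WT means, Elovl3 was higher in liver (37.04 against 17.15 TPM in BAT) and Ppargc1a in heart (26.53 against 12.09 TPM). Smim30 RNA remained in every Mut library, at 17.3 TPM or more. It was lower in Mut without overlap in heart (17.8 to 27.4 against 32.7 to 37.5 TPM in WT) and muscle (24.3 to 27.3 against 32.9 to 35.7 TPM), while the genotypes overlapped in liver (means 21.1 and 23.2 TPM) and in BAT, where the Mut mean was the higher (29.5 and 28.7 TPM). In heart, 5 atrial genes led by Nppa summed to between 329.7 and 3327 TPM in WT and between 22.6 and 88.8 TPM in Mut. All 5 were called lower in Mut, where 0.15% of all genes tested were called in either direction. Heart Mut 2 stood apart with 54.7% of its TPM from mitochondrially encoded genes, against 41.5% to 44.0% in WT heart. Heart Mut 4 stood apart with 26213 TPM summed over 5 red blood cell genes, against 3088 to 6720.5 TPM in the other heart libraries. In muscle, Mut 2 and Mut 3 had summed slow fibre genes of 429.4 and 410.3 TPM, against 1737 to 2373 TPM in WT.

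**Figure D1:**
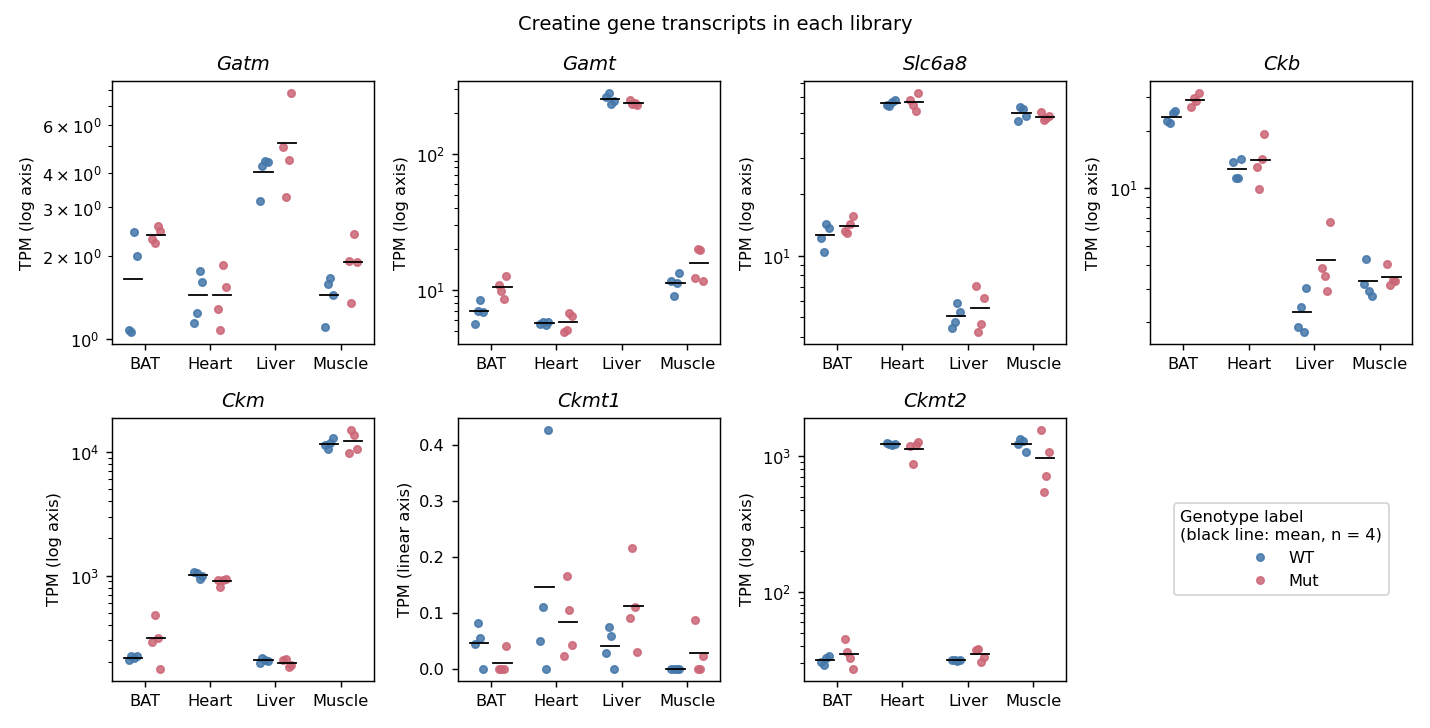
TPM of each of the 7 genes (one panel each, vertical axis in TPM, on a log scale except for Ckmt1) in every library, by tissue and genotype; points are libraries and black lines are means of 4. Gamt stands highest in liver, Ckb in BAT, Ckm in muscle, and Ckmt2 in heart and muscle, in both genotypes, while Ckmt1 stays at or under 0.428 TPM.

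The 2 synthesis genes were both highest in liver, but at very different levels. Gatm, the first enzyme, had 3.15, 4.24, 4.41 and 4.39 TPM in the 4 WT liver libraries. It had 1.07, 1.06, 2.44 and 2.00 TPM in WT BAT, 1.14 to 1.77 TPM in WT heart and 1.10 to 1.67 TPM in WT muscle. Every WT liver library lay above every WT library of the other tissues, which overlapped with each other. In the limma fit of the WT libraries, whose differences are on the scale of log2(TPM + 1), liver exceeded muscle by 1.04 (SE 0.16, adjusted p = 1.2e-05) and heart by 1.05 (SE 0.16, adjusted p = 1.13e-05), and BAT was lower than liver by -0.96 (SE 0.16, adjusted p = 3.58e-05). The pseudocount of 1 makes such differences smaller than the ratio of the TPM for a gene this low. The other 3 pairs did not pass, with BAT minus heart at 0.087 (SE 0.16, adjusted p = 0.670), BAT minus muscle at 0.079 (adjusted p = 0.678) and heart minus muscle at -0.0078 (adjusted p = 0.973).

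Gamt, the methyltransferase of the second step, had 264.7, 282.7, 233.8 and 248 TPM in WT liver. The other tissues were far lower: 9.06 to 13.4 TPM in WT muscle, 5.66 to 8.43 TPM in WT BAT and 5.55 to 5.86 TPM in WT heart. Liver exceeded muscle by 4.40 on the log2 scale (SE 0.11, adjusted p = 2.77e-16), and muscle exceeded heart, with heart minus muscle at -0.87 (SE 0.11, adjusted p = 2.89e-06). BAT and heart were neighbours in this order, with a difference of 0.25 in WT (SE 0.11, adjusted p = 0.0623) that passed without BAT WT 1 (0.33, adjusted p = 0.0135), muscle WT 2 (adjusted p = 0.0385) or muscle WT 4 (adjusted p = 0.0490). In the Mut libraries, which are separate samples, the same BAT minus heart difference was 0.76 (SE 0.16, adjusted p = 4.89e-04). Within WT liver the ratio of Gamt to Gatm was 65.0 ± 13.9 (SD, n = 4), against 8.09 ± 2.24 in muscle, 4.72 ± 1.57 in BAT and 4.10 ± 0.847 in heart. The transcript Gamt-202 held 94.8% ± 0.584 of Gamt TPM in WT liver.

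Slc6a8, the creatine importer, was highest in heart and muscle and lowest in liver. It had 54.8, 53.9, 56.6 and 57.8 TPM in WT heart and 45.8, 53.3, 52.3 and 48.6 TPM in WT muscle, against 10.4 to 14.3 TPM in WT BAT and 4.39 to 5.86 TPM in WT liver. No library of BAT or liver reached the heart or muscle range. Heart and muscle did not differ past the threshold (0.16, SE 0.10, adjusted p = 0.161), although they did with median-ratio scaling (0.23, adjusted p = 0.0151). BAT exceeded liver by 1.17 (SE 0.10, adjusted p = 6.07e-09) and was below muscle by -1.91 (SE 0.10, adjusted p = 9.88e-12). Liver was thus the tissue with the most Gamt and the least Slc6a8. The transcripts Slc6a8-201 and Slc6a8-203, both protein coding, held 36.1% and 34.2% of its TPM in WT heart and 37.6% and 38.3% in WT muscle.

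Ckb, the brain-type cytosolic kinase, was highest in BAT. The WT BAT libraries had 22.6, 22.0, 24.9 and 25.4 TPM, the WT heart libraries 13.8, 11.3, 11.3 and 14.3 TPM, the muscle libraries 3.16, 4.30, 2.93 and 2.75 TPM and the liver libraries 1.89, 2.40, 1.78 and 3.02 TPM. BAT and heart did not overlap with any other tissue, while muscle and liver overlapped. BAT exceeded heart by 0.86 (SE 0.13, adjusted p = 1.89e-05), muscle by 2.54 (SE 0.13, adjusted p = 1.32e-11) and liver by 2.93 (SE 0.13, adjusted p = 1.3e-12). Liver lay below muscle in WT, at -0.39 (SE 0.13, adjusted p = 0.0112), but not without WT muscle library 2 (-0.28, adjusted p = 0.0507). In Mut the liver minus muscle difference was 0.19 (SE 0.18, adjusted p = 0.364). The protein-coding transcript Ckb-201 held 96.3% ± 2.79 of Ckb TPM in WT BAT.

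Ckm, the muscle-type cytosolic kinase, was the most abundant of the 7 in muscle, with 11266, 10563, 11887 and 12937 TPM in the WT libraries. WT heart had 1064, 1045, 933.9 and 988.2 TPM, WT BAT 207.5 to 224.4 TPM and WT liver 196.9 to 214.6 TPM. Muscle and heart stood clear of each other and of the rest, while BAT and liver overlapped. The heart minus muscle difference was -3.53 (SE 0.07, adjusted p = 8.73e-17), and BAT minus liver was 0.079 (SE 0.070, adjusted p = 0.328). In Mut, BAT minus liver was 0.59 (SE 0.22, adjusted p = 0.0231).

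Ckmt2, the sarcomeric mitochondrial kinase, was high in both heart and muscle. WT heart had 1247, 1238, 1214 and 1231 TPM, and WT muscle had 1223, 1331, 1295 and 1070 TPM. The libraries of these tissues overlapped. Heart minus muscle was 0.0083 (SE 0.069, adjusted p = 0.929), and 0.41 (adjusted p = 2.67e-04) when mitochondrially encoded genes and the 10 most abundant genes were left out of the scaling. WT BAT had 29.3 to 34.1 TPM and WT liver 31.2 to 31.9 TPM, with a BAT minus liver difference of 0.0043 (SE 0.069, adjusted p = 0.962), against 5.24 for heart minus liver (SE 0.07, adjusted p = 1.44e-19). Ckmt1, the ubiquitous mitochondrial kinase, was listed at 0 in all 4 WT muscle libraries and reached at most 0.428 TPM, in heart WT 4. It passed the filter of a mean of 1 TPM nowhere and was not tested.

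Across the 6 pairs of WT tissues, 28 of 36 member comparisons passed. By pair, 4 of 6 tested members passed for BAT against heart (61.7% of all genes tested passed), 4 for BAT against liver (71.1%), 5 for BAT against muscle (71.4%), 6 for heart against liver (78%), 3 for heart against muscle (63.2%) and 6 for liver against muscle (78.7%). Most genes differed between tissues, so the members' counts are read against these shares. In the Mut libraries 30 of 36 passed (background, in the same order of pairs, 69.5%, 71.3%, 72.9%, 79.2%, 63.9% and 78.8%), and 27 passed in both genotypes with the same direction. The 4 that passed in one genotype alone were Gamt and Gatm for BAT against heart and Ckm for BAT against liver, in Mut, and Ckb for liver against muscle, in WT. Whether the genotypes differ in these pairs was not tested, since the interaction below takes all tissues at once and not a named pair. Scaling bears on small differences between tissues, since leaving mitochondrially encoded and the most abundant genes out of it moved the median of all genes from -0.00088 to 0.52 for BAT minus liver and from -0.034 to 0.27 for heart minus muscle. With that scaling BAT exceeded liver by 0.77 for Ckm (adjusted p = 2.39e-08) and by 0.68 for Ckmt2 (adjusted p = 8.03e-07), and heart exceeded muscle by 0.56 for Slc6a8 (adjusted p = 5.83e-05).

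**Figure D2:**
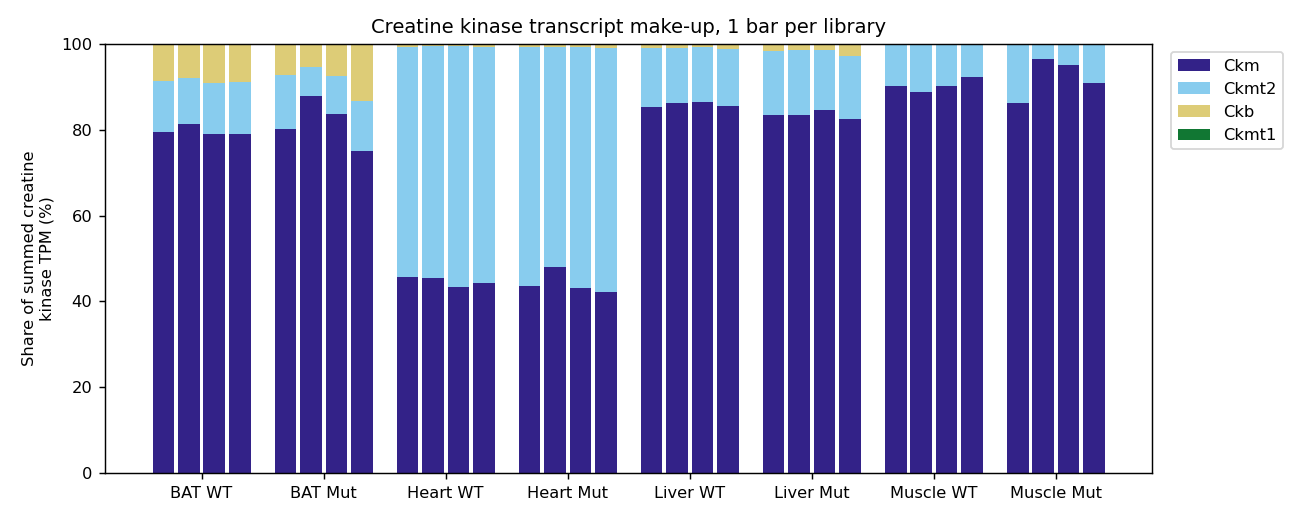
Share of each creatine kinase in the summed TPM of Ckm, Ckmt2, Ckb and Ckmt1 (vertical axis, percent), with 1 stacked bar per library in the 8 groups. Heart is split nearly evenly between Ckm and Ckmt2, with WT means of 44.7% and 54.7%, while Ckb is visible mainly in BAT.

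Set together, the 4 kinases set heart apart, while Ckm was the largest share in muscle, BAT and liver. Their summed TPM in WT was 12896 ± 910 in muscle, 2253 ± 73.2 in heart, 273.9 ± 9.43 in BAT and 240.7 ± 7.50 in liver (SD, n = 4). Ckm took 90.4% ± 1.47 of it in muscle and 44.7% ± 1.18 in heart, and Ckmt2 took 9.61% ± 1.47 in muscle and 54.7% ± 1.18 in heart. The mitochondrial isoform was therefore the larger share in heart and the smaller in muscle, although its TPM was close in both. In BAT and liver, Ckm took 79.7% ± 1.14 and 85.9% ± 0.554 of the sum, and Ckmt2 took 11.6% ± 0.671 and 13.2% ± 0.507. Ckb took 8.66% ± 0.484 in BAT, 0.943% ± 0.230 in liver, 0.562% ± 0.0661 in heart and 0.0258% ± 0.00726 in muscle.

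The Ckm and Ckmt2 found in BAT and liver were set against genes of muscle fibres. As a share of its WT muscle mean, Ckm was at 1.77% in WT liver, 1.87% in WT BAT and 8.64% in WT heart. The 13 skeletal fibre markers, among them the contractile genes Acta1, Myh4 and Tnnt3, were at 1.30% to 1.55% in liver (median 1.49%), 1.44% to 2.04% in BAT (median 1.51%) and 1.23% to 3.31% in heart (median 1.39%). In WT, Ckm in liver lay just above the range of these markers, Ckm in BAT within it but above its median, and Ckm in heart above it. As a share of the Mut muscle mean, the order changed in Mut. There Ckm in BAT, at 2.57%, lay above the markers (1.85% to 2.43%). Ckm in Mut liver, at 1.61%, lay within them (1.33% to 1.80%), and Ckm in Mut heart, at 7.32%, lay above them (1.04% to 2.94%). None of the 13 was at 0 in any library. As a share of its WT muscle mean, Ckmt2 was at 2.587% in WT BAT and 2.575% in WT liver, above the highest marker in each. For Ckmt2 the highest tissues are heart and muscle. Relative to the sum of both means, a different scale from that of the markers, it stood at 1.29% in both BAT and liver. Shares of this size were not limited to muscle genes. The brown fat gene Ucp1 was at 1.58% of its WT BAT mean in heart, 1.87% in liver and 2.04% in muscle. Other genes of its list stood higher, such as Cox7a1 at 88.8% in heart. How RNA at such shares came to be in a library was not tested, nor whether any of it was made in BAT or liver cells. In bulk tissue fewer cells of a type and less RNA per cell cannot be told apart.

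Gamt outside liver was set against hepatocyte genes in the same way. The 8 hepatocyte markers were at 0.860% to 1.27% of their WT liver mean in BAT, 0.835% to 1.30% in heart and 1.03% to 1.72% in muscle. Gamt was at 2.73%, 2.22% and 4.41% in these tissues, above the highest marker in each. Gatm was at 40.6%, 35.5% and 35.8%, far above the share of any hepatocyte marker.

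**Figure D3:**
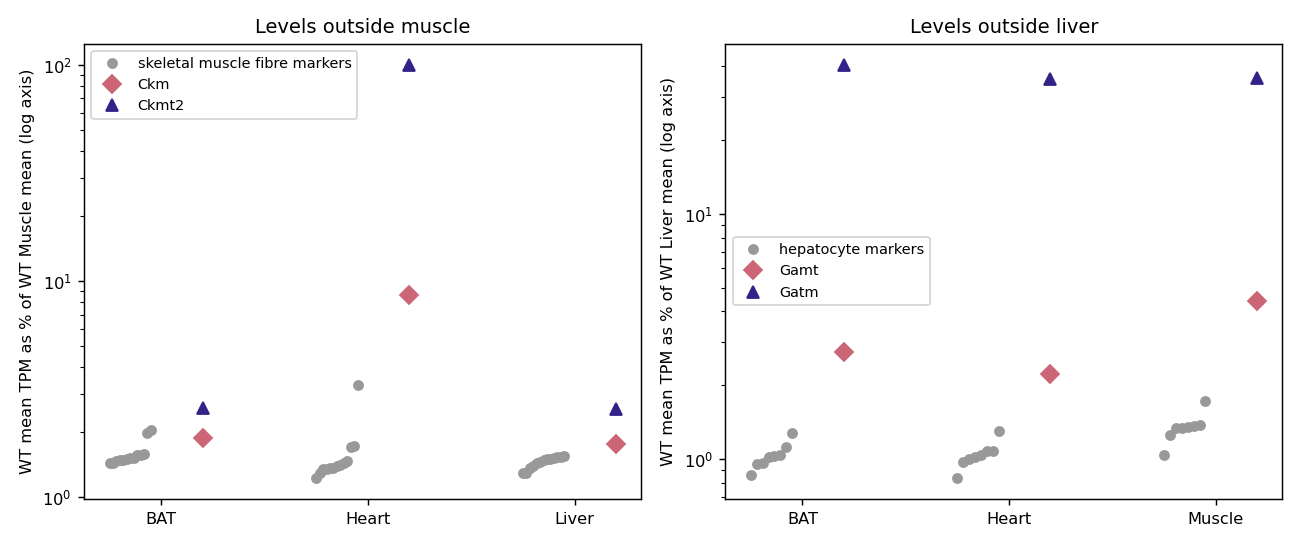
WT mean TPM outside the tissue of highest marker level, as a percent of the WT muscle mean (left) or WT liver mean (right), both on log axes. Grey points are the 13 skeletal fibre or 8 hepatocyte markers; Ckm lies at 1.87% in BAT and 1.77% in liver, near the markers, and Gamt lies above the hepatocyte markers in all 3 other tissues.

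Other genes with the same profile were found by the Pearson correlation of log2(TPM + 1) over the 32 libraries, among 7652 genes. The libraries of a tissue share its level, so these values mainly describe the 4 tissues. Gamt was most like Hs6st1 (r = 0.994), Dnmbp (0.991) and Fn1 (0.990), the fibronectin gene. Slc6a8 was most like Nipsnap2 (0.991), Bzw2 (0.990) and Parvb (0.987). Ckb was most like Adrb1 (0.977), the beta-1 adrenergic receptor, Ushbp1 (0.976) and Pfkp (0.974), a phosphofructokinase. Ckm was most like Camk2a (0.998), Rtn2 (0.996) and Klhl40 (0.996), and Ckmt2 like Clip4, Cox6a2, the heart and muscle form of a cytochrome oxidase subunit, and Hspb6 (0.996 each). Gatm had the weakest nearest profiles, Uvrag and Slc37a3 (0.931 each) and Sdf2l1 (0.925).

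The other comparison was Mut against WT within each tissue. None of the 6 tested members passed the limma test in any tissue. In BAT no gene of 12150 passed (0% called, though 819 genes did without WT library 3), in heart 0.15% did, in liver 4.16% and in muscle 0.0085%. At an unadjusted p under 0.05, 3 of 6 members passed in BAT (Gamt, Ckb and Gatm, against 19.5% of all genes), 0 in heart (11.6%), 1 in liver (Ckb, 25.9%) and 1 in muscle (Gamt, 7.76%). The median Mut minus WT difference of the members was 0.34 in BAT (0.089 over all genes tested), 0.0063 in heart (-0.11), 0.11 in liver (0.099) and 0.060 in muscle (0.050).

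**Figure D4:**
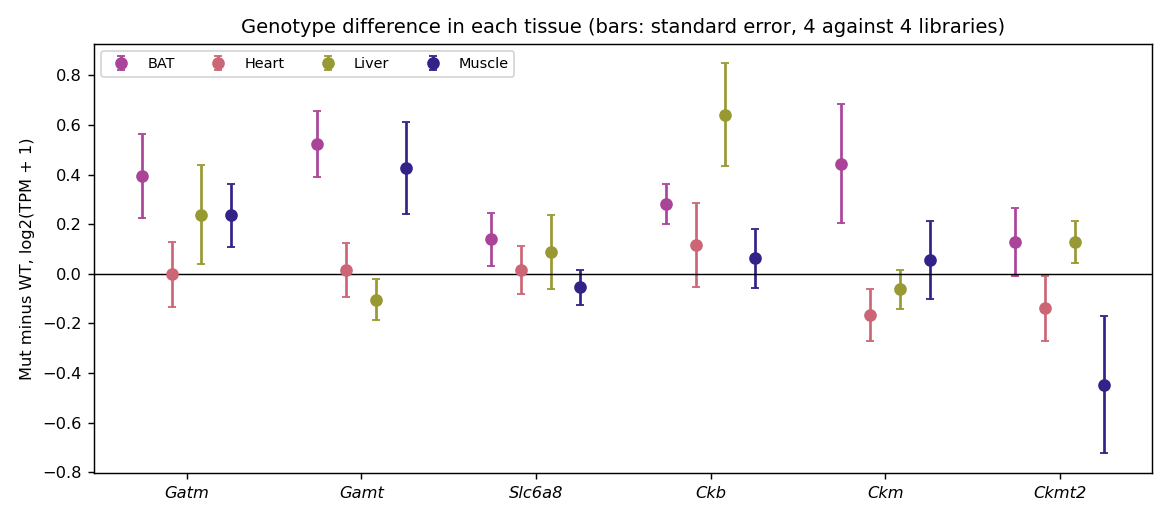
Mut minus WT difference of the 6 tested members in each tissue, in log2(TPM + 1) units, with bars of 1 standard error from 4 against 4 libraries. All 6 BAT points lie above 0 and none of the 24 differences passed; the 2 furthest from 0 are Ckb in liver at 0.64 and Gamt in BAT at 0.52.

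In BAT the Mut values of Gamt and Ckb lay wholly above the WT values. Gamt had 5.66, 7.08, 8.43 and 6.94 TPM in WT and 11.0, 9.91, 8.65 and 12.7 TPM in Mut, a difference of 0.52 (SE 0.13, adjusted p = 0.125). Ckb had 22.6, 22.0, 24.9 and 25.4 TPM in WT and 26.6, 29.6, 28.4 and 31.5 TPM in Mut, a difference of 0.28 (SE 0.08, adjusted p = 0.151). Groups without overlap and higher in Mut were seen for these 2 of 7 members, and for 7.75% of all genes tested in BAT (9.41% in either direction). No member separated the genotypes without overlap in heart, liver or muscle, where 7.53%, 16.4% and 4.49% of genes did. Without WT library 3, the highest of WT for Gamt, Gamt passed at 0.61 (adjusted p = 0.0347), in a fit that called 819 of 12159 genes. Without Mut 3 the difference was also 0.61 and did not pass (adjusted p = 0.167). With all libraries kept, Gamt passed under array weights (adjusted p = 0.0499) and in 1 fit over all 32 libraries (adjusted p = 0.0273). Gatm had 1.07, 1.06, 2.44 and 2.00 TPM in WT and 2.31, 2.22, 2.57 and 2.46 TPM in Mut, with WT 1 and WT 2 below all others, and its difference was 0.40 (SE 0.17, adjusted p = 0.238).

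Those 2 WT libraries also had the fewest macrophage transcripts. The 5 macrophage genes, led by Lyz2, summed to 54.5 and 87.5 TPM in WT 1 and WT 2, 296.4 and 176.5 TPM in WT 3 and WT 4, and 281.9 to 366.4 TPM in Mut, and none was at 0. All 5 had an unadjusted p under 0.05 (19.5% of all genes tested) and 0 passed (0%). Without WT 1 and WT 2 the differences were 0.41 for Gamt (adjusted p = 0.263), 0.20 for Ckb (adjusted p = 0.319) and 0.077 for Gatm (adjusted p = 0.742). WT 1 and WT 2 were the lowest for Gatm and Ckb, so leaving them out had to lower those differences. The endothelial sum was 122.5 to 133.7 TPM in WT and 134.1 to 171.2 TPM in Mut. The 5 red blood cell genes summed to 2096 to 3864 TPM in WT and 4081 to 6220.5 TPM in Mut, without overlap, and all 5 had an unadjusted p under 0.05 with a median difference of 0.83. Of 4 tested smooth muscle genes 3 did, with sums of 29.7 to 50.3 TPM in WT and 46.0 to 76.6 TPM in Mut. The Schwann cell and neuron sum was 161.3 and 160.9 TPM in WT 1 and WT 2. It was 229.3 and 206.6 TPM in WT 3 and WT 4, and 194.9 to 221.6 TPM in Mut. WT 1 and WT 2 also had the lowest endothelial and red blood cell sums of the BAT libraries. The part of these cells in the differences was not tested.

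Ckm in BAT had 207.5, 224.4, 217.3 and 224.2 TPM in WT and 292.9, 477.7, 315.9 and 176.6 TPM in Mut. Mut 1, 2 and 3 lay above all WT libraries and Mut 4 below them, and the difference was 0.44 (SE 0.24, adjusted p = 0.341). The 13 skeletal fibre genes put the 4 Mut libraries in the same order: they summed to 1608 to 1773 TPM in WT, and to 2350, 3594, 2494 and 1493 TPM in Mut 1 to 4, and their part in the Ckm values was not tested. Ckmt2 was highest in Mut 1, at 45.6 TPM against 29.3 to 34.1 TPM in WT, and there Myh7, the slow fibre myosin, was at 22.3 TPM against 1.87 to 2.81 TPM in WT. In Mut 2, with the most Ckm, Myh7 was at 1.98 TPM and Ckmt2 at 36.0 TPM. Slc6a8 had 10.4 to 14.3 TPM in WT and 12.9 to 15.6 TPM in Mut, a difference of 0.14 (SE 0.11, adjusted p = 0.516).

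**Figure D5:**
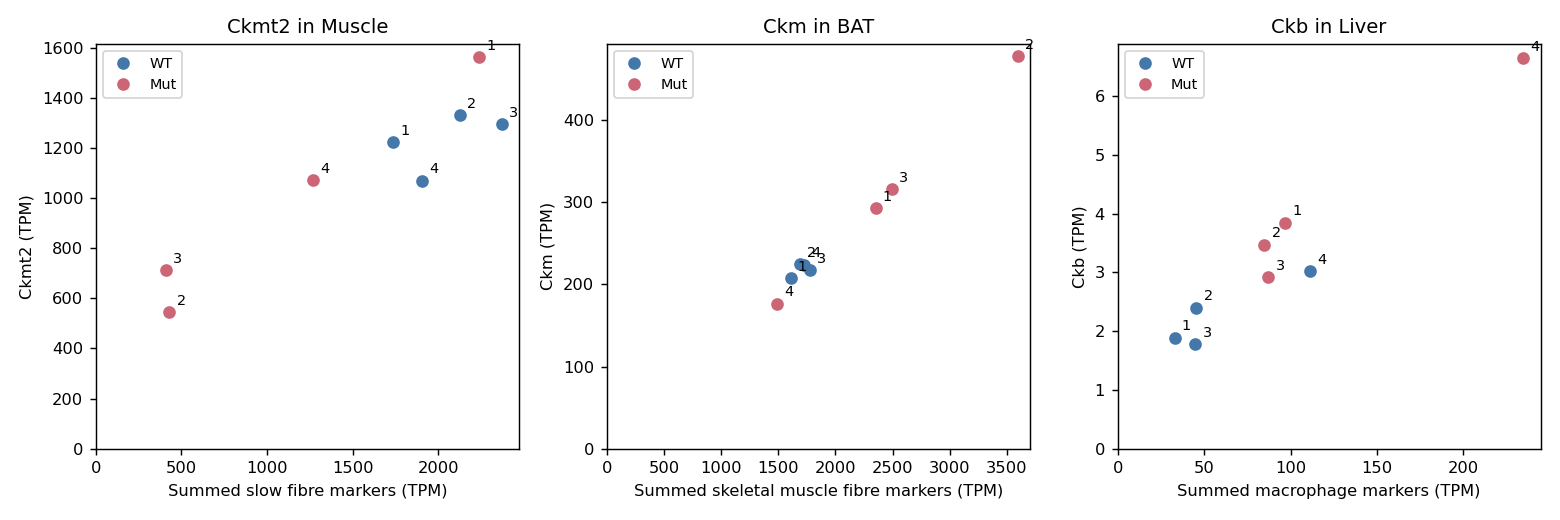
A member's TPM (vertical axes) against the summed TPM of a marker list (horizontal axes) in each of the 8 libraries of 1 tissue: Ckmt2 and slow fibre genes in muscle, Ckm and skeletal fibre genes in BAT, and Ckb and macrophage genes in liver; numbers are replicate labels. Muscle Mut 2 and Mut 3 are low on both axes, BAT Mut 2 is high on both, and liver Mut 4 is high on both.

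In muscle the mitochondrial kinase varied most. Ckmt2 had 1223, 1331, 1295 and 1070 TPM in WT and 1563, 545.7, 711.6 and 1072 TPM in Mut, and the difference was -0.45 (SE 0.28, adjusted p = 0.723). Mut 2 and Mut 3 lay below every WT library and Mut 1 above them. The 8 slow fibre genes, led by Myl2, summed to 2240, 429.4, 410.3 and 1270 TPM in Mut 1 to 4, and Myh7 was at 7.26 TPM in Mut 2 and 1.45 TPM in Mut 3 against 118 to 172.7 TPM in WT. Without these 2 libraries the Ckmt2 difference turned to 0.079 (adjusted p = 0.949) and that of Ckm from 0.056 to -0.19 (adjusted p = 0.848). These 2 were the lowest for Ckmt2 and the highest for Ckm, so leaving them out had to move the differences this way.

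The same 2 libraries were the highest of the 8 for Gamt and for Ckm. Gamt had 11.7, 9.06, 11.3 and 13.4 TPM in WT muscle and 12.3, 20.0, 19.8 and 11.7 TPM in Mut, a difference of 0.43 (SE 0.19, adjusted p = 0.637) that was 0.084 (adjusted p = 0.938) without Mut 2 and Mut 3. Ckm had 9753, 15100, 13665 and 10623 TPM in the 4 Mut libraries. The ratio of Ckm to Ckmt2 was 9.61 ± 1.76 in WT and 15.8 ± 9.64 in Mut, and ran from 6.24 to 27.7 among the Mut libraries (SD, n = 4). Slc6a8 was at 46.0 to 50.4 TPM in Mut against 45.8 to 53.3 TPM in WT, and Ckb at 3.13 to 4.01 TPM against 2.75 to 4.30 TPM. Mut 2 and Mut 3 also had the highest sums of the 13 skeletal fibre genes, at 144910 and 137182 TPM against at most 121956 TPM in the others. Of the brown adipocyte list, Adipoq was at 63.9 and 52.6 TPM in them, against 11.8 to 24.4 TPM in the others. Plin1 (33.1 and 30.7 against 14.5 to 23.1 TPM) and Fabp4 (686.5 and 678.4 against 466.8 to 632.6 TPM) were also highest in them. Cox7a1 was lowest in them, at 397.2 and 494.2 TPM against 543.2 to 652.6 TPM. Ucp1 was not raised, at 64.3 and 53.5 TPM against 49.5 to 68.8 TPM in the others. The rest of the list did not set these 2 libraries apart. The part of fibre or other tissue make-up in the Ckmt2, Ckm and Gamt values was not tested. Within Ckm, the share of the protein-coding transcript Ckm-201 was 14.6% ± 4.32 in WT and 7.57% ± 5.34 in Mut, and that of Ckm-203 69.4% ± 6.89 and 79.5% ± 8.53. The remaining transcript, Ckm-202, is annotated as not coding and held 16.0% ± 2.68 and 12.9% ± 3.61, so the summed TPM of Ckm includes it.

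In liver the largest difference was that of Ckb, from a low level. It had 1.89, 2.40, 1.78 and 3.02 TPM in WT and 3.85, 3.47, 2.92 and 6.64 TPM in Mut, with Mut 4 the highest and Mut 3 just below WT 4. The difference was 0.64 (SE 0.21, adjusted p = 0.0981), and 0.44 (adjusted p = 0.140) without Mut 4. The macrophage sum was 33.0, 45.5, 45.0 and 111.2 TPM in WT and 96.9, 84.9, 87.3 and 234.6 TPM in Mut. The library with the most macrophage transcripts in each genotype, WT 4 and Mut 4, also had the most Ckb. Macrophage genes were not alone in this. WT 4 and Mut 4 had the highest endothelial sums of their genotype (31.7 and 32.9 TPM). Their sums were also highest for smooth muscle (11.8 and 16.6 TPM) and for Schwann cell and neuron genes (10.2 and 10.4 TPM). The red blood cell sum was highest in WT 3 (1568 TPM) and Mut 4 (4286 TPM). Of the 5 macrophage genes 1 was called higher in Mut, against 4.16% of all genes tested called in either direction. All 5 were higher in Mut, with a median difference of 1.09, and 4 had an unadjusted p under 0.05 (25.9% of all genes tested). The part of any of these cells in the Ckb values was not tested. Gamt, the abundant liver member, had 230.6 to 252.6 TPM in Mut against 233.8 to 282.7 TPM in WT (-0.10, SE 0.08, adjusted p = 0.458). Ckm (184.7 to 211.4 TPM in Mut), Ckmt2 (30.4 to 38.3 TPM) and Slc6a8 (4.21 to 7.06 TPM) all overlapped with their WT ranges, as did Gatm at 3.28 to 7.81 TPM.

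In heart no member passed at either threshold. Ckm had 926.8, 812.9, 918.6 and 937.1 TPM in Mut, with only Mut 4 and WT 3 overlapping between the groups, and the difference was -0.17 (SE 0.11, adjusted p = 0.517). Ckmt2 had 1182, 870.4, 1203 and 1264 TPM in Mut, a difference of -0.14 (SE 0.13, adjusted p = 0.633). Mut 2 was the lowest for both. The 2 differences were 0.0031 and 0.029 after scaling without mitochondrially encoded and the 10 most abundant genes, and Mut 2 had the largest share of mitochondrially encoded TPM. Slc6a8 had 50.9 to 62.7 TPM in Mut against 53.9 to 57.8 TPM in WT, Ckb 9.91 to 19.3 TPM against 11.3 to 14.3 TPM, Gamt 4.91 to 6.79 TPM against 5.55 to 5.86 TPM, and Gatm 1.07 to 1.85 TPM against 1.14 to 1.77 TPM. The highest Slc6a8 and Ckb values were both those of Mut 4, the library with the most red blood cell transcripts. Without it the difference of Slc6a8 turned from 0.015 to -0.036 and that of Ckb from 0.12 to -0.039. The part of the atrial and red blood cell markers in these values was not tested.

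Whether the genotype difference itself varied between tissues was tested by an interaction term over all 32 libraries. It passed for 0 of 6 members, against 6.03% of all genes tested. Gamt came nearest, with F = 4.67 (adjusted p = 0.0823), and was the 1 member at an unadjusted p under 0.05. Its differences were 0.52 in BAT, 0.015 in heart, -0.10 in liver and 0.43 in muscle. For Ckm the adjusted p was 0.225, and without BAT Mut 4 it was 0.0174.

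The genes around the creatine pathway were taken as 3 lists. The first held 15 genes that make or use arginine and glycine. Those at an unadjusted p under 0.05 numbered 1, 0, 4 and 1 in BAT, heart, liver and muscle. Of all genes tested, 19.5%, 11.6%, 25.9% and 7.76% reached that level. After adjustment 1 gene of 13 tested was called in liver, where 4.16% of all genes were, and 0 of 12 or 13 in the other tissues. That gene was Oat, ornithine aminotransferase, with 474.9 ± 45.9 TPM in WT liver and 730.9 ± 117 TPM in Mut (SD, n = 4), and the groups did not overlap (411.1 to 520.4 against 579.9 to 851.9 TPM). Groups without overlap, in either direction, were seen for 16.4% of all genes tested in liver. Oat rose by 0.61 (SE 0.13, adjusted p = 0.0382). Median-ratio scaling ended the call (0.49, adjusted p = 0.0963), as did leaving out any 1 of the 8 libraries, with adjusted p from 0.0532 without Mut 1 to 0.103 without WT 3. Gcat, a mitochondrial enzyme of threonine breakdown that yields glycine, had lower means in Mut in all 4 tissues and passed in none: 8.24 and 6.61 TPM in BAT (adjusted p = 0.261), 6.15 and 4.74 TPM in heart (0.480), 39.8 and 32.7 TPM in liver (0.137) and 7.01 and 4.98 TPM in muscle (0.431). The next genes by p were Shmt2 in heart (-0.18, adjusted p = 0.481), Ass1 in muscle (-0.11, adjusted p = 0.752) and Oat in BAT (0.23, adjusted p = 0.199). The list's median difference was 0.093 in BAT, -0.057 in heart, 0.038 in liver and -0.024 in muscle, against 0.089, -0.11, 0.099 and 0.050 over all genes tested.

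The second list, 16 genes of the S-adenosylmethionine cycle that supplies the methyl group of creatine, had 0 of 16 called in each tissue, and 4, 1, 5 and 0 at an unadjusted p under 0.05 in BAT, heart, liver and muscle, where 19.5%, 11.6%, 25.9% and 7.76% of all genes did. Pemt, which uses the same methyl donor to make phosphatidylcholine, had 411.6 ± 31.3 TPM in WT liver and 324.7 ± 9.57 TPM in Mut (-0.34, SE 0.08, adjusted p = 0.0530), and passed with median-ratio scaling (-0.46, adjusted p = 0.0317). In heart it had 6.15 and 4.54 TPM (-0.38, adjusted p = 0.380). In BAT, Nnmt, which methylates nicotinamide, had 47.0 ± 10.8 and 73.7 ± 5.83 TPM (0.66, SE 0.15, adjusted p = 0.120), and Ahcyl1, a relative of the S-adenosylhomocysteine hydrolase, 156.8 ± 15.3 and 124.6 ± 4.84 TPM (-0.33, SE 0.08, adjusted p = 0.123). Both passed without BAT WT library 3, at 0.75 (adjusted p = 0.0294) and -0.37 (adjusted p = 0.0378). Also named by p were Mat2b in heart (-0.21, adjusted p = 0.479), Ahcyl2 in liver (0.27, adjusted p = 0.106), and Adk (-0.28, adjusted p = 0.702) and Nnmt (0.28, adjusted p = 0.706) in muscle. The median of the list was 0.085, -0.028, 0.14 and -0.019 in BAT, heart, liver and muscle, against 0.089, -0.11, 0.099 and 0.050 over all genes.

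The third list held 14 genes that move phosphate beside creatine kinase, with 0 of 13 tested called in each tissue and 1, 0, 3 and 1 at an unadjusted p under 0.05 in BAT, heart, liver and muscle, against the same shares of all genes (19.5%, 11.6%, 25.9% and 7.76%). Phospho1, a phosphatase linked to creatine cycling in fat, was highest in BAT at 355.4 ± 15.6 TPM in WT and 324.2 ± 32.3 TPM in Mut, against 230.4 TPM in WT muscle, 58.5 TPM in WT heart and 13.5 TPM in WT liver. In liver it had 20.5 ± 4.44 TPM in Mut (0.58, SE 0.20, adjusted p = 0.112). Alpl, tissue-nonspecific alkaline phosphatase, was at 6.77 ± 0.854 TPM in WT BAT and 21.0 ± 2.54 TPM in WT heart. Slc16a12, a creatine exporter, had 36.3 ± 4.93 TPM in WT liver, the tissue with the most Gamt, and at most 1.35 TPM on average in the other WT tissues. In Mut liver it had 44.5 ± 4.85 TPM (0.29, SE 0.11, adjusted p = 0.140). Slc25a3, the mitochondrial phosphate carrier, had 306.3 and 351.6 TPM in WT and Mut BAT (0.21, adjusted p = 0.271), 1202 and 1000.5 TPM in heart (-0.29, adjusted p = 0.466) and 874.4 and 741.2 TPM in muscle (-0.25, adjusted p = 0.637). Ak4, a mitochondrial adenylate kinase, had 1.80 and 1.25 TPM in BAT (-0.31, adjusted p = 0.165). The list's median difference was -0.016, -0.15, 0.072 and -0.048 in BAT, heart, liver and muscle, where all genes had 0.089, -0.11, 0.099 and 0.050.

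The ATP exporters that work beside the mitochondrial kinase split by tissue. Slc25a4, the heart and muscle adenine nucleotide carrier, averaged 3167 ± 88.8 TPM in WT muscle and 2701 ± 96.1 TPM in WT heart, against 302 ± 18.3 TPM in BAT and 84.1 ± 4.79 TPM in liver, the same 2 tissues in which Ckmt2 was high. Its Mut means were 2168 ± 531 TPM in heart (-0.36, adjusted p = 0.453) and 2879 ± 186 TPM in muscle (-0.14, adjusted p = 0.723). Slc25a5, its sister gene, was highest in liver (528.3 ± 61.8 TPM) and BAT (425.6 ± 39.5 TPM) and lowest in muscle (57.0 ± 1.03 TPM). Ak1, cytosolic adenylate kinase, had 869.3 ± 37.6 TPM in muscle, 271.5 ± 7.93 TPM in heart, 48.6 ± 2.80 TPM in BAT and 16.5 ± 1.25 TPM in liver (SD, n = 4).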

How the data were processed

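Per the labels' protocols, frozen tissue gave total RNA for stranded Illumina sequencing. The authors deposited TPM per transcript, made with Salmon per the submitters' processing notes (version, transcriptome and build: not given in the sources used here). Identifiers were matched to GENCODE M21, which gave 136081 of 147493 transcripts (92.26%), and TPM was summed per gene. Unmatched transcripts held 0.451% to 0.896% of a library's TPM. Differences were tested with limma 3.58.1 in R 4.3.3 on log2(TPM + 1), two-sided, with its intensity trend, with Benjamini-Hochberg adjustment over all genes tested and calls at an adjusted p under 0.05. Genotypes were fitted within each tissue on genes whose mean reached 1 TPM, tissue pairs within the WT libraries, and the interaction over all 32. Libraries were taken as independent: whether a replicate number marks 1 mouse in several tissues is not stated, and the tests between tissues and of the interaction rest on this. The fits were tested on simulated data. Tables used Python 3.11.15 and pandas 2.3.3.

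The members and lists were chosen with earlier results of these data known. Named genes are the 7 members, pathway genes called in a tissue or otherwise the 2 with the smallest p per list, 4 genes acting with creatine kinases, the leading marker of a list, and the 3 genes most like each member among those averaging 10 TPM or more in a tissue. Alternatives were a pseudocount of 0.1, no filter, a filter at 5 TPM, 2 other scalings, no trend, array weights, a replicate block, 1 fit over all libraries, the Mut libraries for tissue pairs, and leaving out each library. Leaving out 2 libraries of BAT or muscle was added after the data were seen. Those libraries were at an end of the range for some members, so the direction in which those members moved was set beforehand.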

Additional observations from a re-analysis of the deposited data

Results flagged for a closer look

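With 4 libraries in a group, 3 of the 56 member-by-group sets held a library far from the other 3 by Dixon's gap test, and chance alone gives this in about 1 of 20 sets. Gatm in WT liver was lowest in WT 1, at 3.15 TPM, with the others at 4.24 to 4.41 TPM. Ckm in Mut heart was lowest in Mut 2, at 812.9 TPM, with the others at 918.6 to 937.1 TPM. Ckmt1 in Mut BAT was listed above 0 only in Mut 4, at 0.0414 TPM, so its flag follows from the zeros and the rate of 1 in 20 does not apply to it. Ckmt1 in WT muscle was 0 in all 4 libraries and could not be tested, though it is counted among the 56.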

How the results depend on the processing

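The count of members called between genotypes was 0 in each tissue, and became 1 in BAT (Gamt) with array weights, with 1 fit over all 32 libraries (adjusted p = 0.0273), and, among fits without 1 library (range 0 to 1), without BAT WT 3. It became 1 in liver (Ckb, adjusted p = 0.0112) with 1 fit over all libraries. The count of pathway genes called in BAT was 0, with 3 under array weights, 1 in the single fit and 0 to 2 without 1 library. In heart it was 0, with 1 in the single fit. In liver it was 1, with 0 without a filter and under the replicate block, 2 under array weights, 8 in the single fit and 0 to 1 without 1 library. With median-ratio scaling it was also 1, but of another gene: Pemt passed (adjusted p = 0.0317) and Oat did not (adjusted p = 0.0963). Between heart and muscle 3 members differed, 4 with median-ratio scaling (adding Slc6a8) and 5 when mitochondrial genes and the top 10 were left out of the scaling (adding Slc6a8 and Ckmt2). The interaction count was 0, and 0 to 2 without 1 library: Gamt without BAT WT 3, Muscle Mut 1 or Muscle Mut 4, Ckm without BAT Mut 4 and Ckmt2 without Muscle Mut 1. Over all genes, calls ranged from 0 to 819 in BAT, 0 to 118 in heart (18 as reported), 22 to 1810 in liver (499) and 0 to 8 in muscle (1); the low and high ends for BAT and liver came without BAT WT 3 (819), without liver WT 3 (22) and from the single fit (1810).

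Between tissues of a genotype, the deviations of same-numbered libraries correlated at a median of 0.052 (-0.089 to 0.232), with 18 of 48 pairs over 0.1, against a median of -0.017 and 8 of 144 pairs for different numbers. Not every same-numbered pair exceeded 0.1, and whether a number marks a shared mouse or batch across tissues was not settled. Within a tissue, same-numbered WT and Mut libraries had a median of -0.065, with 1 of 16 pairs over 0.1. The replicate block moved the liver count over all genes from 499 to 126 and no member's call between genotypes. Median-ratio scaling moved the median of all genes from -0.11 to -0.00092 in heart, 0.099 to -0.0044 in liver and 0.089 to -0.0071 in BAT.

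Differences that changed sign were not called, apart from Ckb for liver minus muscle, which was 0.19 in Mut. Gatm in heart became 0.072 with median-ratio scaling, 0.13 with rescaling (without mitochondrial and abundant genes), 0.10 with array weights and -0.081 to 0.072 without 1 library. With rescaling, Ckm and Ckmt2 in heart became 0.0031 and 0.029. Without 1 heart library, Gamt ran from -0.052 to 0.082, Slc6a8 from -0.036 to 0.063 and Ckb from -0.039 to 0.26. Slc6a8 in liver became -0.013 with median-ratio scaling and -0.022 to 0.19 without 1 library, and Ckm in muscle -0.0044 and -0.051 to 0.16. Without 2 BAT WT libraries Slc6a8 in BAT was -0.0051. Without 2 muscle Mut libraries Ckm was -0.19, Ckmt2 0.079, Adk 0.0027 and Nnmt -0.032. Gatm for BAT minus heart became -0.040, -0.018 and -0.015 with median-ratio scaling, rescaling and array weights, and -0.053 to 0.20 without 1 library. For BAT minus muscle it was -0.0038 (median-ratio), -0.076 (weights) and -0.061 to 0.19, and for heart minus muscle 0.036 (median-ratio), 0.29 (rescaling) and -0.079 to 0.052. Ckmt2 for BAT minus liver became -0.029 with array weights and -0.029 to 0.042 without 1 library, and for heart minus muscle ran from -0.057 to 0.048.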
